A study of Mus musculus with 7 samples.

Results

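A set of 9 genes of the MHC class II presentation pathway were followed in hematopoietic stem cells (HSCs) from mice that had lost the transcription factor C/EBPα and from mice that had kept it. The list held Cd74, H2-Aa, H2-Ab1, H2-Eb1, H2-DMa, H2-DMb1, H2-Oa, H2-Ob and Ciita, and a gene counted as measured where an array probe set was annotated to it and to no other gene. By this rule 8 of the 9 genes were measured, out of 19938 measured genes in all. H2-DMb1 was the exception, because the only probe set that carries its name also carries that of H2-DMb2. Each of the 8 genes had a single probe set of its own, so no choice between probe sets was made.

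The mutant HSCs came from Cebpa flox/flox;Mx1Cre mice, called Cebpa Δ/Δ here (4 arrays), and the control HSCs from Cebpa flox/flox mice without the transgene, called Cebpa fl/fl (3 arrays). All animals were female C57BL/6 mice aged 10 to 12 weeks at treatment, all carried Cebpa alleles flanked by loxP sites, and all received 3 injections of pIpC, an inducer of interferon, before they were killed at day 18. Mx1Cre is driven by an interferon-responsive promoter and is active in many tissues besides blood stem cells, and the Cebpa fl/fl mice lacked this Cre. HSCs were sorted as Lin-, Sca1+, cKit+, CD150+ and CD48- cells, and their amplified RNA was hybridised to Affymetrix Mouse Gene ST arrays. Values are log2 of the deposited intensity, a difference of 1 is a doubling, and each array carries its genotype and the labels' replicate number as its name.

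Class II molecules are pairs of an α and a β chain that carry peptides from endosomes to the cell surface, where CD4 T cells read them. H2-Aa and H2-Ab1 encode the chains of I-A, and H2-Eb1 encodes the β chain of I-E, whose α chain gene H2-Ea is defective in C57BL/6 mice. Cd74, the invariant chain, fills the groove of new class II molecules, H2-DM (H2-DMa with H2-DMb1 or H2-DMb2) exchanges its remnant for peptide, and H2-O (H2-Oa with H2-Ob) holds H2-DM back. Ciita is the coactivator that switches these genes on, mainly in B cells, dendritic cells and macrophages, through proteins bound to the X and Y boxes of their promoters.

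The promoters are shown because Ciita acts on class II genes through proteins bound to X and Y boxes. RefSeq windows of 300 bases (250 before to 50 after the start, build GRCm38.p6) were matched by symbol for 6 of the 9 genes. For 5 of them the sequence is printed below over the 57 bases around the Y box, 5′ to 3′ on the gene's strand. Capitals mark the Y box (GATTGG, the reverse complement of CCAATC) and, where it was found, the X box, searched as AGNAAC, any 2 bases and ATG.
H2-Aa: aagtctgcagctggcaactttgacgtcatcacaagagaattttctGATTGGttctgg
H2-Eb1: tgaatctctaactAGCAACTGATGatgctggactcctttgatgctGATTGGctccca
H2-DMb1: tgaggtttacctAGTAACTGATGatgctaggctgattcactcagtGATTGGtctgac
H2-Oa: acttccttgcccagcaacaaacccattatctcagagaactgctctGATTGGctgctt
H2-Ob: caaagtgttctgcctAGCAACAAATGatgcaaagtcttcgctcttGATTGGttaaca

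These stretches lie at chr17:34287861-34287917 on the minus strand for H2-Aa, and on the plus strand at chr17:34305762-34305818 for H2-Eb1, chr17:34153084-34153140 for H2-DMb1, chr17:34092290-34092346 for H2-Oa and chr17:34238802-34238858 for H2-Ob. The Y box began 49 bases before the start of H2-Aa, 60 before that of H2-Eb1, 62 before that of H2-DMb1, 44 before that of H2-Oa and 58 before that of H2-Ob. H2-DMa, the remaining matched gene, has 2 annotated starts, and only the window of the second held the Y box. The X box as searched was found in 3 of the 6 matched genes, H2-Eb1, H2-DMb1 and H2-Ob. The Y box occurred on either strand in 16.1% of all 32851 promoter windows, whereas the X box as spelled here occurred in 0.895%. An X box followed on the same strand by a Y box after 15 to 30 bases was found in 4 windows of all, those of H2-Eb1, H2-DMb1, H2-Ob and H2-Eb2. The letters of both motifs were set with these promoters in view, so the shares describe the letters and not a site in use.

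Among the 8 measured genes, Cd74 alone passed the study's thresholds (unadjusted p below 0.05 and a change above 1.5-fold), and it was higher in Cebpa Δ/Δ HSCs. That is 1 of 8 genes, where 1.57% of all genes tested passed in this direction. None of the 8 passed as lower, a direction in which 0.617% of all genes passed. After Benjamini-Hochberg adjustment over all genes, limma called none of the 8 at an adjusted p below 0.05 (lowest 0.644), and it called 0% of all genes. At an unadjusted p below 0.05 without regard to size, 2 of the 8 were higher, Cd74 and H2-Aa, and 0 were lower, against 4.4% and 3.08% of all genes. The 8 genes had a median log2 fold change of 0.12, beside 0 over all genes, with 6 above 0 and 2 below it.

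Cd74 had 9.56, 8.89, 9.55 and 9.39 in Δ/Δ 1 to 4, against 8.58, 8.56 and 8.98 in fl/fl 1 to 3. The groups overlapped by a single pair, since Δ/Δ 2 lay below fl/fl 3. Its mean was 9.35 ± 0.32 in Cebpa Δ/Δ HSCs and 8.71 ± 0.24 in Cebpa fl/fl HSCs (SD, n = 4 and 3), a 1.56-fold difference with a 95% interval of 1.13 to 2.17 (limma log2 fold change 0.64, SE 0.20, adjusted p = 0.644). An exact two-sided permutation test over the 35 splits of the arrays gave p = 0.0857. The call sits close to the fold limit and was lost when any of 4 arrays was left out. Without Δ/Δ 1 or without Δ/Δ 3 the log2 fold change was 0.57, short of 1.5-fold, with an unadjusted p still below 0.05. Without fl/fl 1 or without fl/fl 2 it was 0.58 and 0.57, and the unadjusted p was above 0.05 as well.

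H2-Aa, the α chain of I-A, had 9.68, 8.88, 8.96 and 9.12 in Cebpa Δ/Δ arrays and 8.70, 8.59 and 8.55 in Cebpa fl/fl arrays. Every Cebpa Δ/Δ array lay above every Cebpa fl/fl array. H2-Aa was the only one of the 8 genes with separated groups in either direction, where 3.51% of all genes lay fully above and 2.46% fully below. Its difference was 1.46-fold, short of the 1.5-fold limit (log2 fold change 0.55, SE 0.20, adjusted p = 0.663 by limma, exact permutation p = 0.0571). Δ/Δ 1 stood highest, and without it the log2 fold change was 0.37, with an unadjusted p still below 0.05. H2-Aa passed both thresholds without Δ/Δ 2 (0.64) and without Δ/Δ 3 (0.61), whereas its unadjusted p was above 0.05 without Δ/Δ 4 and without any of the 3 Cebpa fl/fl arrays.

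H2-Ab1, the β chain that pairs with H2-Aa, did not follow it array by array. Its levels were 8.75, 8.11, 8.95 and 7.56 in Cebpa Δ/Δ arrays, against 8.26, 8.01 and 7.93 in Cebpa fl/fl arrays. The Cebpa Δ/Δ arrays held both the highest values, in 1 and 3, and the lowest of all, in 4, a range of 1.39 on the log2 scale beside 0.32 among Cebpa fl/fl arrays. With that spread the log2 fold change of 0.28 had an interval of -0.54 to 1.09 (adjusted p = 0.828 by limma), so a difference of the size seen for Cd74 and H2-Aa lies within it. The value was 0.07 without Δ/Δ 3, 0.14 without Δ/Δ 1 and 0.54 without Δ/Δ 4. In Δ/Δ 4, H2-Aa was above all Cebpa fl/fl arrays while H2-Ab1 was below all of them.

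H2-Eb1, the I-E β chain, had 7.34, 6.85, 7.30 and 7.05 in Cebpa Δ/Δ arrays and 7.36, 6.96 and 6.83 in Cebpa fl/fl arrays. The groups overlapped over nearly their whole range, with a log2 fold change of 0.08 (95% interval -0.33 to 0.50). H2-Ea and H2-Eb2 are further class II loci. H2-Ea was dim, and lay between 3.56 and 3.63 in Cebpa Δ/Δ arrays and between 3.62 and 3.67 in Cebpa fl/fl arrays, below the level of 4.43 that bounds the dimmest 25% of genes. H2-Eb2 lay between 4.61 and 4.65 in Cebpa Δ/Δ arrays, against 4.53 to 4.86 in Cebpa fl/fl arrays, and neither gene passed the test.

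**Figure D1:**
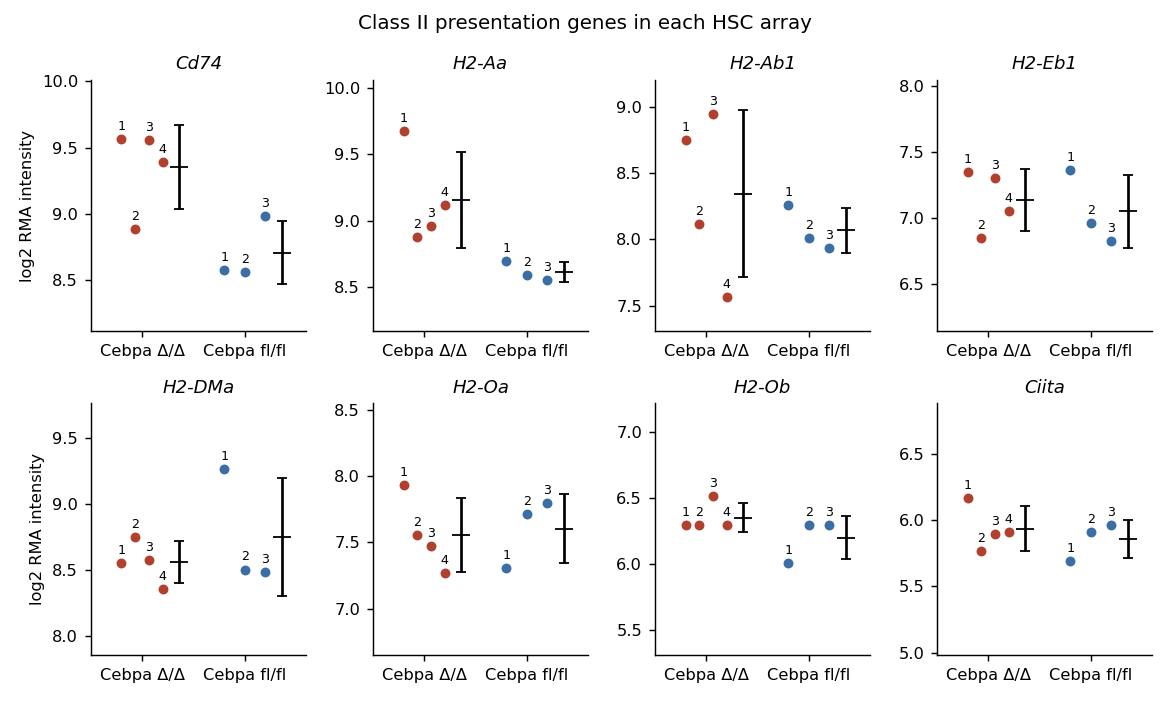
Log2 RMA intensity (y axis) of the 8 measured class II genes in each array, with Cebpa Δ/Δ in red and Cebpa fl/fl in blue, replicate numbers above the points, and mean and SD as bars. Every panel spans the same height on the log2 scale. Only H2-Aa has all Cebpa Δ/Δ points above all Cebpa fl/fl points, and H2-Ab1 has the widest spread among Cebpa Δ/Δ arrays.

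Of the genes that load peptide, none with a probe set of its own passed the test. H2-DMa, a chain of the peptide exchanger, had 8.55, 8.75, 8.58 and 8.36 in Cebpa Δ/Δ arrays and 9.26, 8.50 and 8.48 in Cebpa fl/fl arrays. Only fl/fl 1 stood apart, and the log2 fold change of -0.19 (95% interval -0.69 to 0.31, adjusted p = 0.815 by limma) became 0.066 without it. The probe set shared by H2-DMb1 and H2-DMb2, which can be assigned to neither gene, had 7.11, 6.96, 7.15 and 7.30 in Cebpa Δ/Δ arrays, against 6.94, 6.65 and 6.86 in Cebpa fl/fl arrays. Its Cebpa Δ/Δ arrays lay above all Cebpa fl/fl arrays, as was so for 1049 of all 35556 probe sets. Tested among these, it had a log2 fold change of 0.32 (SE 0.11, adjusted p = 0.760 by limma), below the fold limit. Its unadjusted limma p was below 0.05.

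H2-Oa, a chain of the H2-DM inhibitor, had 7.93, 7.55, 7.48 and 7.27 in Cebpa Δ/Δ arrays and 7.31, 7.71 and 7.80 in Cebpa fl/fl arrays. Both groups covered much the same range, with a log2 fold change of -0.05 (95% interval -0.49 to 0.40). Its partner H2-Ob had 6.30 in Cebpa Δ/Δ arrays 1, 2 and 4 and 6.52 in Δ/Δ 3, against 6.01, 6.30 and 6.30 in Cebpa fl/fl arrays. In all, 4 arrays of both genotypes carried the identical value for H2-Ob, a trait of the deposited summary that 63.6% of all genes shared for at least 2 arrays. The log2 fold change of H2-Ob was 0.15 (95% interval -0.09 to 0.39), and it was 0.06 without fl/fl 1 and 0.09 without Δ/Δ 3.

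Ciita, the coactivator, had 6.17, 5.77, 5.89 and 5.91 in Cebpa Δ/Δ arrays and 5.70, 5.91 and 5.96 in Cebpa fl/fl arrays. The groups overlapped, and its log2 fold change was 0.08 (SE 0.11, 95% interval -0.19 to 0.35, adjusted p = 0.854 by limma), an interval whose upper end corresponds to 1.27-fold. Its signal was near 5.86, the median over all genes on the same scale.

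**Figure D2:**
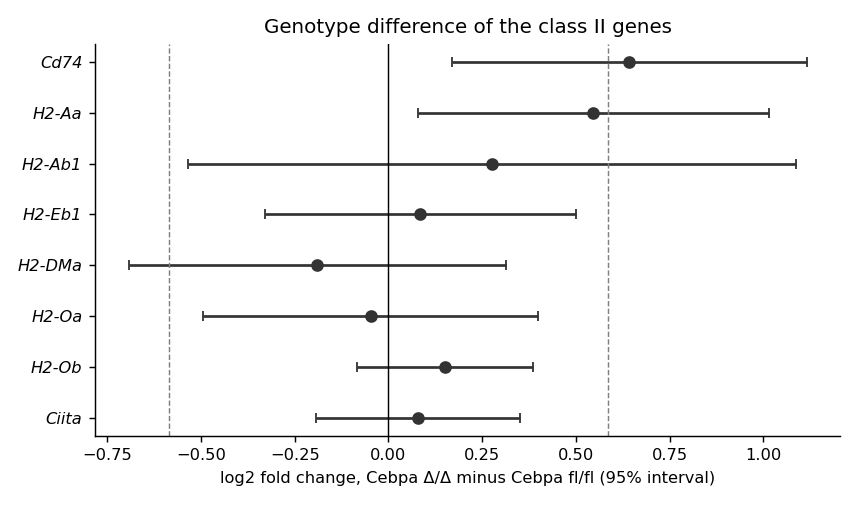
Log2 fold change, Cebpa Δ/Δ minus Cebpa fl/fl (x axis), of each measured class II gene with its 95% interval from limma; dashed lines mark 1.5-fold in either direction. The intervals of Cd74 and H2-Aa lie above 0, and those of the other 6 genes include it.

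Of 17 listed class II gene regulators, 0 passed the thresholds in either direction. Over all genes 1.57% passed as higher and 0.617% as lower, so a count of 0 among 17 lies near those shares. None had an unadjusted limma p below 0.05, and the median log2 fold change was -0.02. Irf2, an interferon-regulated repressor and activator, had the smallest p (log2 fold change -0.34, SE 0.17, adjusted p = 0.703), followed by Rfxap, a subunit of the RFX complex at the X box (0.32, SE 0.19, adjusted p = 0.735). Zbtb46, a repressor found in dendritic cells, had a log2 fold change of 0.07, and Nfyc, a subunit of the NF-Y complex at the Y box, had 0.14. Neither passed the test.

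Interferon gamma is the main inducer of Ciita outside professional presenting cells. In the list for its signalling the median log2 fold change was 0.16. Beside 1.57% and 0.617% of all genes, 1 of 15 measured genes passed as higher and 0 as lower. The gene was Ifngr1, the ligand-binding receptor chain, with 8.84, 8.75, 8.60 and 8.52 in Cebpa Δ/Δ arrays and 8.04, 7.99 and 8.15 in Cebpa fl/fl arrays (log2 fold change 0.62, SE 0.09, adjusted p = 0.276 by limma). Its groups were clear of each other. Gbp5 and Iigp1, interferon-induced GTPases, also had separated groups (log2 fold changes 0.56 and 0.49) but did not reach 1.5-fold, and Cd274, which encodes PD-L1, had 0.39 (adjusted p = 0.664). Gbp3, named only for this, held the identical value, 7.51, in all 7 arrays, so it could not pass.

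The endosomal list holds the enzymes that trim Cd74 and cut antigens, their inhibitors and membrane proteins of the same compartment. Of its 15 genes, 5 passed as higher in Cebpa Δ/Δ HSCs and 0 as lower, beside 1.57% and 0.617% of all genes. All 15 had a log2 fold change above 0, as 9914 of all 19938 genes did, and the median was 0.33. Ctss, a cathepsin that trims the invariant chain in B cells and dendritic cells, had 7.996, 7.89, 8.77 and 7.87 in Cebpa Δ/Δ arrays and 7.42, 6.70 and 6.28 in Cebpa fl/fl arrays. All Cebpa Δ/Δ arrays lay above all Cebpa fl/fl arrays (log2 fold change 1.33, SE 0.33, adjusted p = 0.507 by limma). Ctss ranked below the 4 smallest p-values that set which list genes are named, and it was added after its values were seen.

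Ifi30, the thiol reductase that opens disulfide bonds of antigens and is induced by interferon gamma, had 8.48, 7.25, 7.59 and 7.48 in Cebpa Δ/Δ arrays, against 6.64, 6.55 and 6.12 in Cebpa fl/fl arrays (log2 fold change 1.26, SE 0.31). Lgmn, the asparagine endopeptidase, had 5.62, 5.29, 5.10 and 4.92 in Cebpa Δ/Δ arrays and 4.23, 4.48 and 4.65 in Cebpa fl/fl arrays (log2 fold change 0.78, SE 0.18). Ctse, cathepsin E, an aspartic protease that red cell precursors also contain, had 10.78, 9.84, 10.56 and 9.84 in Cebpa Δ/Δ arrays and 7.50, 8.83 and 7.18 in Cebpa fl/fl arrays (log2 fold change 2.42, SE 0.45). For each of these genes the groups were separated. Cst7, cystatin F, an inhibitor of cysteine proteases, was the remaining gene that passed (log2 fold change 1.55, SE 0.33).

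Surface turnover and costimulation showed little. Of 13 genes, 0 passed in either direction, where 1.57% and 0.617% of all genes passed as higher and lower. The median log2 fold change was 0.13. Lag3, a receptor that binds class II molecules, had separated groups with 6.25, 6.44, 6.52 and 6.47 in Cebpa Δ/Δ arrays and 5.67, 6.13 and 5.92 in Cebpa fl/fl arrays, short of 1.5-fold (log2 fold change 0.51, SE 0.12, adjusted p = 0.494 by limma). Marchf8, a ubiquitin ligase that sends class II molecules to lysosomes, had a log2 fold change of 0.45 (adjusted p = 0.703), and Cd4, the T cell coreceptor for class II, had 0.31 (adjusted p = 0.703).

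MHC class I presentation served as a neighbouring pathway. The median log2 fold change of its 18 measured genes was 0.08. Beside 1.57% and 0.617% of all genes, 0 passed as higher and 1 as lower. The gene was Nlrc5, a relative of Ciita that activates class I genes, with 9.28, 8.80, 8.79 and 9.51 in Cebpa Δ/Δ arrays and 10.11, 9.44 and 10.08 in Cebpa fl/fl arrays. Δ/Δ 4 lay above fl/fl 2, so the groups overlapped (log2 fold change -0.78, SE 0.25, adjusted p = 0.655 by limma). Psme2, a proteasome activator subunit, had a log2 fold change of 0.51 and did not reach 1.5-fold.

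In the type I interferon list, 5 of 23 measured genes passed as higher and 0 as lower, beside 1.57% and 0.617% of all genes. The median log2 fold change was 0.38. Ifit1, which binds foreign RNA, and Rsad2, an antiviral enzyme, had log2 fold changes of 0.91 and 0.90 (SE 0.22 each), both with separated groups. Xaf1 and Oasl1 had separated groups at 0.58 and 0.45, short of 1.5-fold. All mice had received pIpC, and the part that a differing interferon response plays in the class II values was not tested.

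**Figure D3:**
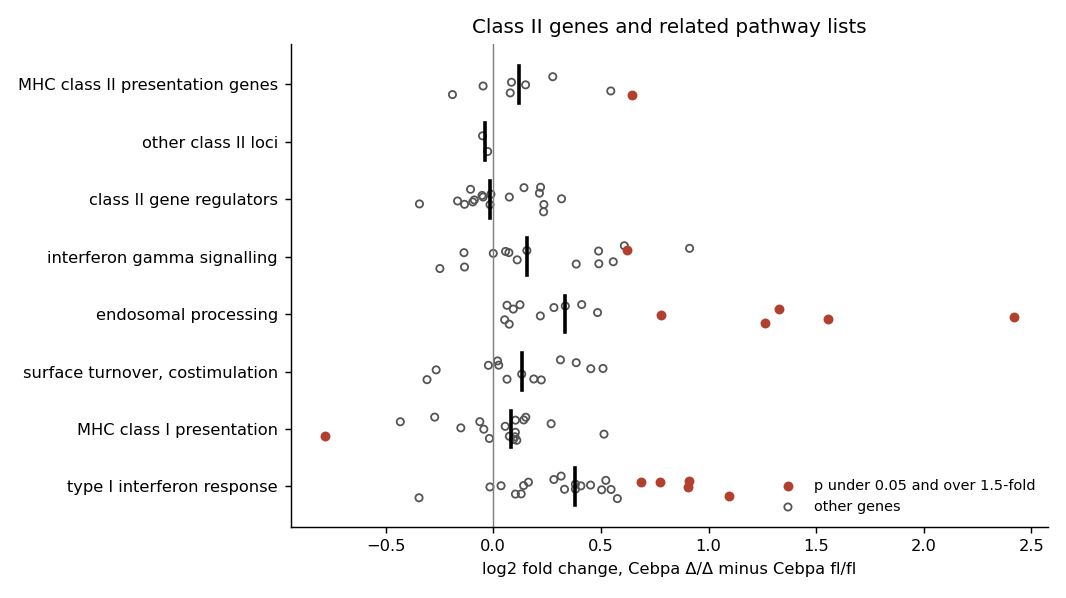
Log2 fold change, Cebpa Δ/Δ minus Cebpa fl/fl (x axis), of every measured gene of the class II list and 7 related lists (rows); filled points passed p below 0.05 and 1.5-fold, open points did not, and the bar is each list's median. Endosomal processing has 5 filled points to the right of 0, the class II list has 1, and the regulators have none.

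On chromosome 17 the class II genes other than Cd74 and Ciita lie together, and RefSeq's gene order was used to ask what their neighbours did. From Slc39a7 to Btnl1, 11 genes that are no class II list members were measured. Of these, 0 passed in either direction and the median log2 fold change was 0.04. Over all genes 1.57% passed as higher and 0.617% as lower, so a count of 0 among 11 lies near those shares. Psmb9, Tap1, Psmb8 and Tap2, the class I processing genes that sit between H2-DMb1 and H2-Ob, had log2 fold changes of 0.07, -0.06, 0.10 and 0.11. Tap2 held the identical value, 7.69, in all 4 Cebpa Δ/Δ arrays, against 6.99 to 8.05 in Cebpa fl/fl arrays, so its difference says little. Brd2, between H2-Oa and H2-DMa, had 0.04. At the ends of the stretch, Slc39a7 had 0.12 and Btnl1 0.11.

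The genes whose pattern over the 7 arrays lay nearest to the mean pattern of Cd74, H2-Aa, H2-Ab1 and H2-Eb1 were Slc25a44, Eri2, Asf1a, Gm12185 and Mcm7. Likeness was the root mean square distance between centred log2 values, which was 0.08 for Slc25a44 and 0.10 for Mcm7, beside a median of 0.35 over the 9961 genes compared. Averaged over Cd74, H2-Aa, H2-Ab1 and H2-Eb1, Δ/Δ 1 lay 0.50 and Δ/Δ 3 lay 0.36 above the mean over the 7 arrays. Every other array lay below it. Single genes departed from this mean pattern. In Δ/Δ 4, Cd74 (9.39) and H2-Aa (9.12) lay above their own means over the 7 arrays (9.07 and 8.92). H2-Eb1 was highest in fl/fl 1 (7.36).

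Arrays Δ/Δ 1 and Δ/Δ 3 also differed from the rest in markers of other cells. Of 17 measured macrophage markers, 7 passed as higher in Cebpa Δ/Δ HSCs, beside 1.57% of all genes. The summed intensity of the 17 was 1940, 1022, 1635 and 1225 in Δ/Δ 1 to 4, against 643 to 784 in Cebpa fl/fl arrays. The summed intensity of the 8 class II genes was 2941, 2087, 2612 and 2171 in Δ/Δ 1 to 4, and 1858 to 2156 in Cebpa fl/fl arrays, so Δ/Δ 1 and Δ/Δ 3 were highest on both sums. Spic and C1qc, genes of iron-recycling and other tissue macrophages, led that list (log2 fold changes 2.48 and 2.02), while its defining marker Adgre1, which encodes F4/80, was dim at 3.82 to 4.14 in Cebpa Δ/Δ arrays and 3.62 to 3.82 in Cebpa fl/fl arrays. The erythroid markers had sums of 5557, 2536, 4779 and 2518 in Δ/Δ 1 to 4, also highest in 1 and 3, and of 519 to 1138 in Cebpa fl/fl arrays. The part of these markers in the class II values was not tested, and in bulk HSCs a change in cell numbers and a change in RNA per cell cannot be told apart.

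Without Δ/Δ 1 and Δ/Δ 3, a choice made after seeing the data, 0 of the 8 class II genes passed, and 1.03% of all genes passed as higher. These arrays had the highest class II sums (2941 and 2612), so a smaller class II difference was built into the choice. No conclusion on what the class II values depend on is drawn from it. The log2 fold change of Cd74 was then 0.43, with an unadjusted limma p above 0.05. That of H2-Aa was 0.39, with an unadjusted p below 0.05. Its remaining Cebpa Δ/Δ arrays lay above all Cebpa fl/fl arrays, as they must where every Cebpa Δ/Δ array does. With these 5 arrays, 8.58% of all genes were separated in this direction. H2-Ab1, H2-Eb1 and Ciita changed sign, to -0.23, -0.10 and -0.02. In the endosomal list 6 of 15 genes then passed as higher, Ctss, Ifi30, Lgmn, Ctse and Cst7 among them. The macrophage list then had 6 of 17 genes that passed as higher, Spic, C1qc and C1qb among them, and the erythroid list had 9 of 11. These counts are not set against the class II count, which the choice of arrays lowered.

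**Figure D4:**
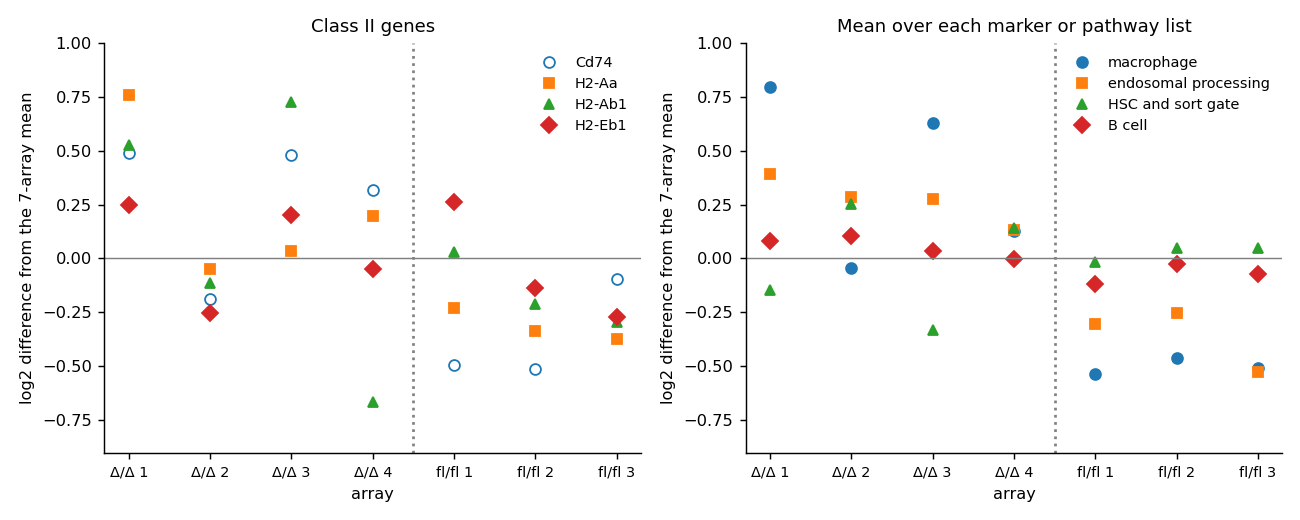
Log2 difference from the mean of the 7 arrays (y axis) in each array (x axis, Cebpa Δ/Δ left of the dotted line), for 4 class II genes (left) and for the mean of 4 gene lists (right). H2-Ab1 and the macrophage list are highest in Δ/Δ 1 and Δ/Δ 3, and both the macrophage and the endosomal list have all 4 Cebpa Δ/Δ arrays above all 3 Cebpa fl/fl arrays.

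Lists for other cells that carry class II molecules were counted in the same way, beside the 1.57% of all genes that passed as higher. Of 17 B cell markers, 1 passed as higher (Spib, log2 fold change 1.03), 6 were among the dimmest 25% of genes, and the summed intensity was 662 to 758 in Cebpa Δ/Δ arrays and 705 to 761 in Cebpa fl/fl arrays. All Cebpa Δ/Δ arrays lay above all Cebpa fl/fl arrays for 3 of the 17, Spib and Blnk (0.55) among them. The share over all genes was 3.51%. Ms4a1, which encodes CD20, lay at 2.83 to 3.57 in Cebpa Δ/Δ arrays, against 3.09 to 3.20 in Cebpa fl/fl arrays. Of 19 dendritic cell markers, 2 passed as higher (Flt3, 0.69, and Clec10a, 1.39), with sums of 4014 to 4651 in Cebpa Δ/Δ arrays and 3258 to 3828 in Cebpa fl/fl arrays. Most of each sum was the signal of Cd24a, the brightest, so the sums say little about the other markers. Cd24a lay at 11.261 to 11.683 in Cebpa Δ/Δ arrays and at 10.809 to 11.255 in Cebpa fl/fl arrays. Clec10a ranked below the 3 smallest p-values that set which list genes are named, and it is named because it passed. Groups were separated upward for 6 of the 19, Naaa (0.32) and Itgax (0.42) among them, against the same 3.51% of all genes. Of 10 T and innate lymphoid markers, 0 passed. The part of the B cell, dendritic cell and lymphoid markers in the class II values was not tested.

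Cebpa itself had 5.11, 5.24, 5.27 and 5.27 in Cebpa Δ/Δ arrays and 5.54, 5.75 and 5.63 in Cebpa fl/fl arrays, lower in all 4 (log2 fold change -0.41, SE 0.07, adjusted p = 0.337 by limma). The HSC and sort gate list had sums of 4471 to 6872 in Cebpa Δ/Δ arrays, lowest in Δ/Δ 3 and Δ/Δ 1, against 6554 to 6799 in Cebpa fl/fl arrays. Cd48, whose protein was absent by the sort, was at 6.40 to 8.82 in Cebpa Δ/Δ arrays and 4.62 to 5.61 in Cebpa fl/fl arrays. All 11 measured erythroid markers passed as higher, and 11 of 16 neutrophil markers passed as lower, beside 1.57% and 0.617% of all genes.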

How the data were processed

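The authors deposited intensity values on a linear scale, 1 per probe set and array, made with the Robust Multichip Average (RMA) in Partek Genomics Suite 6.5 per the methods, and the submitters' processing notes also name affy. RMA includes quantile normalization of the probe values across arrays, which hides a change in the total RNA of a cell. The genome build of the probe sets is not given in the sources used here. The number of arrays, 7, limits the precision, and array medians were 46.2 to 50.4 intensity units.

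Values were taken to log2 with no pseudocount. Of 35556 probe sets, 21789 had 1 gene symbol, 1621 several and 12146 none, and symbols were updated through Entrez IDs. For genes with several probe sets, the brightest was used. limma 3.58.1 in R 4.3.3 compared the genotypes over 19938 genes with Benjamini-Hochberg adjustment, and the fit was tested on simulated data. Beside adjusted p, the study's thresholds (unadjusted p below 0.05, over 1.5-fold) were used, with limma's p. Intervals come from limma's SE.

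The genes and lists were chosen with earlier results of these data known. List genes named are the 4 with the smallest p per pathway list, and, per cell list, the 3 brightest or the 3 with the smallest p, besides defining markers. Exceptions are named in the text. Nearest patterns were sought among genes above the median level. Each array was treated as a mouse, as the series' design counts them, and p-values measure the spread between these samples. Alternatives tried were other scalings, low-value filters, a pseudocount, no variance moderation, array weights, probe set choices, a replicate block and left-out arrays.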

Additional observations from a re-analysis of the deposited data

Results flagged for a closer look

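Among 71 genes that the naming rule selects, 6 had an array far from the other 3 Cebpa Δ/Δ arrays, where the gap to its nearest neighbour made up more of the group's range than Dixon's 95% critical value for 4 samples allows. That critical value assumes continuous values, whereas 63.6% of all genes held the same value in at least 2 arrays. No share expected by chance is therefore given. H2-Ob was highest in Δ/Δ 3, at 6.52, with a gap of 1.0 times the range because the other 3 arrays held the identical value. H2-Eb2 was highest in Δ/Δ 3 (4.65, gap 0.901) and H2-Ea lowest in Δ/Δ 3 (3.56, gap 1.0), and H2-Ea was among the dimmest 25% of genes. H2-M3, a class I gene, was lowest in Δ/Δ 3 (6.76, gap 0.874). Cd4 was highest in Δ/Δ 2 (5.29, gap 0.952), and Mpo, a neutrophil granule enzyme, was lowest in Δ/Δ 4 (7.68, gap 0.850). No array was so marked for Cd74, H2-Aa, H2-Ab1, H2-Eb1, H2-DMa, H2-Oa or Ciita.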

How the results depend on the processing

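Cd74 kept its direction under all 19 alternatives (log2 fold change 0.43 to 0.80) and its call under 13, and H2-Aa kept its direction under all 19 (0.37 to 0.66), passing both thresholds under 3. The low-value filters, the probe set choices and the lack of variance moderation left both fold changes unaltered, so no direction could turn there. The 19 also include the removal of Δ/Δ 1 and Δ/Δ 3, chosen after seeing the data. The count of class II genes that passed as higher was 1, but 2 with array weights (H2-Aa joined), 0 to 2 without a single array, and 0 without fl/fl 1 and Δ/Δ 3 together or without Δ/Δ 1 and Δ/Δ 3 together; Cd74 missed the fold limit or p below 0.05 there. The median log2 fold change of the 8 genes was 0.08 to 0.17 without single arrays and -0.060 without Δ/Δ 1 and 3. Without Δ/Δ 1 and 3, the arrays with the highest class II sums, the sign turned for H2-Ab1 (-0.23), H2-Eb1 (-0.10) and Ciita (-0.018). Without fl/fl 1 and Δ/Δ 3, H2-DMa had 0.06. Without single arrays the ranges were -0.32 to 0.066 for H2-DMa, -0.027 to 0.24 for H2-Eb1, -0.20 to 0.049 for H2-Oa, 0.07 to 0.54 for H2-Ab1, 0.06 to 0.20 for H2-Ob and -0.0017 to 0.13 for Ciita.

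Over all genes, 314 passed as higher (223 to 404 without single arrays) and 123 as lower (93 to 157); as higher, 169 passed without fl/fl 1 and Δ/Δ 3 and 205 without Δ/Δ 1 and 3, and as lower, 75 with a pseudocount of 16, 77 without Δ/Δ 1 and 3 and 499 with all probe sets tested. Genes with all Cebpa Δ/Δ arrays lower numbered 490, but 789 after cyclic loess and 939 with all probe sets. At adjusted p below 0.05, limma called 0 genes, with 1492 at an unadjusted p below 0.05, 5 among genes above the median level, and 0 to 3 without a single array.

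The replicate numbers 1 to 3 did not pair the samples: deviations of same-numbered arrays correlated at -0.0207, 0.102 and -0.185, and only Δ/Δ 2 correlated best with its own number. With the replicate number as a block, where Δ/Δ 4 has no partner and adds nothing to the difference, H2-Ab1 had 0.54, against 0.28 without the block, H2-Oa had 0.049, Cd74 0.63 and H2-Aa 0.56, 1 of the 8 genes passed as higher, and 292 and 120 of all genes passed as higher and lower.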
